A study of Homo sapiens with 12 samples.

Results

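The comparison asked whether 12 h of chidamide made 2 B-cell lymphoma lines more alike, and which differences between them remained, narrowed or appeared under the drug. It set the 3 chidamide libraries labelled JeKo-1 against the 3 chidamide libraries of Granta-519 over every gene of the count table. These are 6 of the 12 libraries sequenced. The other 6 are the vehicle libraries, 3 per line, and they give the difference between the lines before treatment. By their names both are established human lines from mantle cell lymphoma, but marker genes given below go against the JeKo-1 label. The labels give peripheral blood as the source, and all 4 groups grew in the same serum-supplemented medium. The treated groups received 4 µM chidamide for 12 h and the others vehicle, and polyadenylated RNA was sequenced. Nothing in the labels ties the 3 libraries of a group to separate cultures, and p-values then cover the scatter of these libraries alone, which can be technical. Each line is 1 line, so a difference between them cannot be told apart from any other property of these cultures.

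Chidamide is a benzamide that inhibits histone deacetylases, mainly the class I enzymes and HDAC10. These enzymes remove acetyl groups from histone tails, and blocking them changes the transcription of many genes in both directions, among them genes that a cell type normally keeps silent. Cell lines of one lymphoma type differ by their gene losses and gains, by the stage of B-cell development they resemble and by lasting chromatin states. A treatment that acts on chromatin can therefore be asked which of these differences it leaves in place.

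Library totals ran from 12873642 to 16592694 counts. Between 11282 and 11319 genes reached 1 CPM (counts per library total after scaling, the unit of all levels given here) in the vehicle libraries under the JeKo-1 label, and 12218 to 12275 did so with chidamide. In Granta-519 the ranges were 12811 to 12915 in vehicle and 13944 to 14031 with chidamide. The B-cell genes MS4A1, CD79A, PAX5 and CD22 were present in every library, with group means of 224 to 2251 CPM. SOX11, whose transcription factor product marks most mantle cell lymphomas, had 0 counts in all 6 libraries labelled JeKo-1. CCND1, the cyclin gene that the translocation of this lymphoma activates, had 5 counts over the 3 vehicle libraries under that label and 44 over the 3 chidamide libraries. JeKo-1 cells are known to express both, so the data go against this label and the libraries are called by it throughout. The T-cell genes CD3D and CD2, the granulocyte genes MPO and S100A8, and HBB and PF4 of red cells and platelets had at most 5 counts in any group. Other listed genes of these cell types had more. Under the JeKo-1 label with chidamide NKG7 had 217 counts over the 3 libraries (132 in vehicle), LYZ 163 (14) and CD3E 68 (4). HBA1 had 22 in Granta-519 with chidamide (5 in vehicle). Sums of the listed T-cell and natural killer, myeloid, and epithelial and stromal markers rose in both lines, but single genes weighed heavily in them. With chidamide the largest T-cell and natural killer member was CD28 in Granta-519 (140 CPM) and LCK under the JeKo-1 label (46.9 CPM). Of these 21 markers, 5 were at 0 in Granta-519 and 6 under the JeKo-1 label. ITGAM led the myeloid sums, at 79.2 CPM in Granta-519 and 24.1 CPM under the JeKo-1 label. COL1A1 led the epithelial and stromal sums, at 65.6 and 31.6 CPM. The 21 listed T-cell and natural killer markers summed to 69.4 to 72.0 CPM in Granta-519 vehicle and to 211 to 217 CPM with chidamide, and to 22.4 to 26.2 and 53.7 to 59.4 CPM under the JeKo-1 label. The 21 myeloid markers went from 52.0 to 54.5 up to 158 to 172 CPM in Granta-519, and from 5.63 to 8.81 up to 47.2 to 48.5 CPM under the JeKo-1 label. The 21 epithelial and stromal markers went from 115 to 118 up to 167 to 178 CPM in Granta-519 and from 28.6 to 32.7 up to 43.4 to 47.5 CPM under the JeKo-1 label. The 16 erythroid and megakaryocytic markers, mainly the erythropoietin receptor EPOR, went from 6.51 to 6.79 to 6.78 to 8.15 CPM in Granta-519 and from 7.24 to 8.36 down to 4.62 to 6.73 CPM under the JeKo-1 label. The part of such markers in the results was not tested. In bulk RNA, fewer cells of a type and less RNA per cell cannot be told apart.

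The lines stayed far apart. Of 15087 tested genes, 5742 differed at least 2-fold between the treated lines, 1923 of them higher under the JeKo-1 label (12.7% of tested genes) and 3819 higher in Granta-519 (25.3%), by edgeR's quasi-likelihood test at a Benjamini-Hochberg adjusted p under 0.05. In vehicle 5901 differed, 1932 (12.8%) and 3969 (26.3%). The median size of the fitted difference was 0.70 log2 units with chidamide and 0.75 in vehicle. Among 8986 genes with at least 5 CPM in all 4 groups, 1528 differed with chidamide and 1754 in vehicle, and the direction of the treated differences was nearly balanced, with 799 higher under the JeKo-1 label and 702 in Granta-519 in a fit of such genes alone. Thus the excess on the Granta-519 side came with genes that were low in at least 1 group.

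The distance between the lines was measured as the root mean square log2 difference over genes, for each of the 9 pairs of a JeKo-1-labelled and a Granta-519 library within a treatment. Over all tested genes its median was 2.19 with chidamide (2.18 to 2.20) and 2.17 in vehicle (2.15 to 2.18). For the genes at 5 CPM or more in all groups it was 0.775 (0.773 to 0.784) with chidamide and 0.869 (0.865 to 0.882) in vehicle, and the ranges did not overlap. For the 4282 genes under 1 CPM in some group it was 3.82 with chidamide and 3.69 in vehicle. Genes at 5 CPM or more in all groups were thus closer under the drug. For genes low in a group the order depended on the measure, since the median size of their fitted difference was 3.11 with chidamide and 3.73 in vehicle. The order over all genes also depends on the pseudocount of 2 counts added before taking logs. At 0.5 the distance over all genes was 2.64 with chidamide and 2.72 in vehicle, and at 8 it was 1.71 and 1.65. Pairs share libraries, so these distances carry no test.

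**Figure D1:**
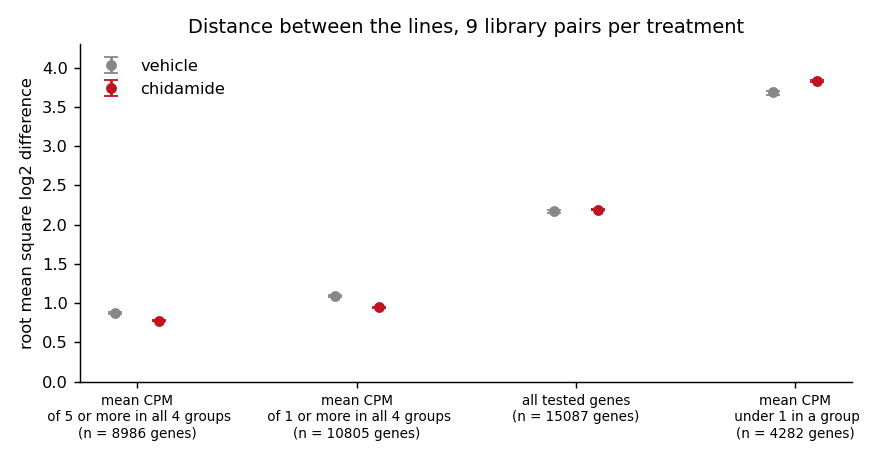
Root mean square log2 difference between a library labelled JeKo-1 and a Granta-519 library (vertical axis) for 4 sets of genes. Points are medians of the 9 library pairs of a treatment and bars span the lowest to the highest pair; the chidamide points lie below the vehicle points for genes with at least 1 CPM in all groups and above them for genes under 1 CPM in a group.

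The change of the difference was tested in the same fit, as the line difference with chidamide minus that in vehicle. It was called for 5956 genes, and the difference narrowed in 3692 of them (24.5% of tested genes) and widened in 2264 (15.0%), so 62.0% of called changes were narrower. Among genes at 5 CPM or more in all groups, 2563 of 4437 called changes (57.8%) were narrower. Most line differences outlasted the treatment all the same. Of the 5901 vehicle differences, 4726 (80.1% of them, 31.3% of tested genes) also passed in the same direction with chidamide. Within these, 3347 had no called change, 1096 (7.26% of tested genes) narrowed and 283 (1.88%) widened. Another 814 (5.4%) closed, meaning that they no longer passed the 2-fold test and that the change was called. A further 486 differences (3.22%) appeared and 17 (0.113%) passed in both treatments in opposite directions. The remaining 344 vehicle and 513 chidamide differences passed in 1 treatment with no called change and were left undecided.

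Closing rarely meant equal levels. Of the 814 closed differences, 637 still had an adjusted p under 0.05 at less than 2-fold, 610 of these in the vehicle direction and 27 in the opposite one. In 162 of the 814 the 95% interval of the treated difference lay within 1.5-fold on either side of equality. Likewise, 312 of the 486 differences that appeared were already past the adjusted p in vehicle, in the same direction and under 2-fold. The vehicle and the chidamide difference share no library, but the change is computed from both, so these classes are descriptions of 1 fit.

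**Figure D2:**
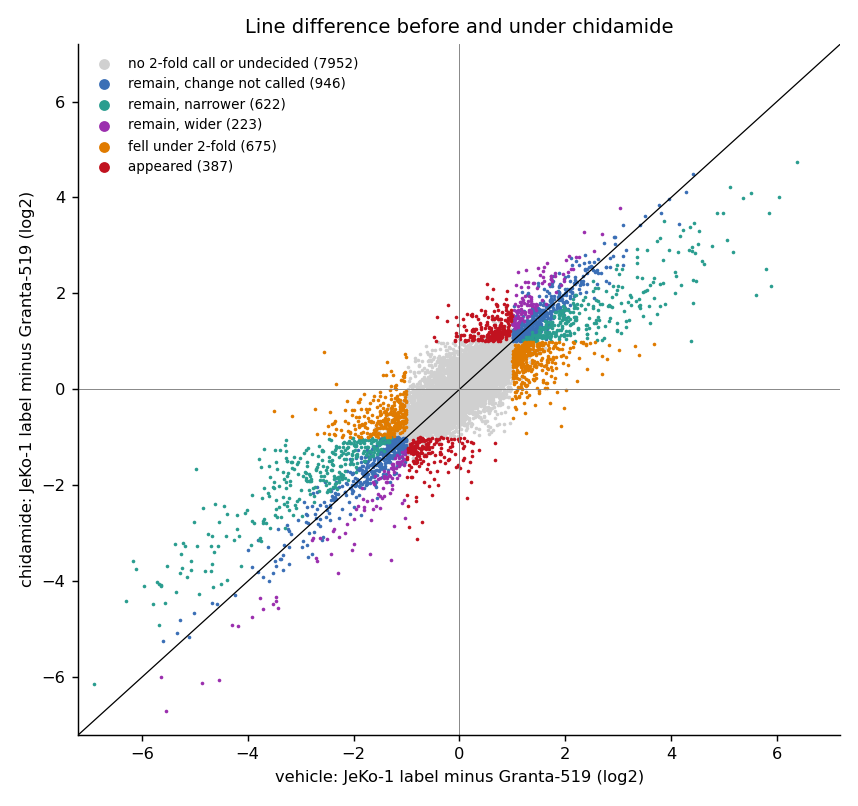
Line difference of each gene in vehicle (horizontal axis) and with chidamide (vertical axis), both as log2 of the JeKo-1 label over Granta-519, for the 10805 genes with at least 1 CPM in all 4 groups. Colours give the classes with their number of genes; points between the diagonal and the horizontal line through 0 narrowed, and the 675 closed genes outnumber the 387 that appeared.

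In most closed differences the lower line rose, and on the JeKo-1 side the higher line also often fell. Over all tested genes, 35.3% rose and 31.1% fell with chidamide under the JeKo-1 label, and 39.6% rose and 31.3% fell in Granta-519. In the 402 closed genes that had been higher in Granta-519, the libraries labelled JeKo-1 rose in 331, and Granta-519 fell in 121 and rose in 152. In the 412 that had been higher under the JeKo-1 label, Granta-519 rose in 271, and the JeKo-1 label fell in 226 and rose in 110. Granta-519 rose with no fall under the JeKo-1 label in 184 of these. The JeKo-1 label fell with no rise in Granta-519 in 139, and both occurred in 87. The lower line also rose in most differences that narrowed and remained. Of 721 such genes higher in Granta-519, 659 rose under the JeKo-1 label, and of 375 higher under the JeKo-1 label, 276 rose in Granta-519. Differences that appeared came from both sides. Among 271 that appeared higher under the JeKo-1 label, that line rose in 146 and Granta-519 fell in 147, and among 215 higher in Granta-519 that line rose in 163 and the JeKo-1 label fell in 85.

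The largest differences that remained were genes read in 1 line and absent from the other. CDKN2A, which encodes the p16 and ARF tumour suppressors, had 108, 118 and 116 CPM in the vehicle libraries and 113, 116 and 117 CPM in the chidamide libraries under the JeKo-1 label, and 0 counts in all 6 Granta-519 libraries. Its treated level was at least 1673-fold higher, taking 3 counts over the group as the limit that a count of 0 allows. Such limits cover counting error only. Its neighbours MTAP, an enzyme of methionine salvage, and CDKN2B, another inhibitor of cyclin-dependent kinases, also had 0 counts in every Granta-519 library. CDKN2B rose under the JeKo-1 label from 1.37, 1.80 and 1.57 CPM to 7.09, 7.68 and 7.19 CPM. The lncRNA gene KIAA0125, the inflammasome-family gene NLRP4 and the pseudogene BMS1P20 completed the 5 largest, at least 1553-fold, 1155-fold and 746-fold higher under the JeKo-1 label.

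In the other direction SOX11 had 165, 155 and 150 CPM in Granta-519 vehicle and 131, 128 and 140 CPM with chidamide, against 0 counts under the JeKo-1 label. The treated difference was at least 2071-fold. NETO1, an auxiliary subunit of glutamate receptors, was at least 3602-fold higher in Granta-519, and the membrane protein gene TMEM185B at least 2765-fold. ENC1, an actin-binding protein, was at least 2324-fold higher and APP, the amyloid precursor protein, at least 1818-fold. All 4 had 0 counts in the 6 libraries labelled JeKo-1. In Granta-519 ENC1 rose by 0.88 on the log2 scale under the drug and APP fell by 0.60.

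Genes silent in 1 line mostly stayed at or near silence. In vehicle, 565 genes had at most 3 counts over the 3 libraries under the JeKo-1 label and at least 5 CPM in Granta-519. With chidamide 168 of them rose under the JeKo-1 label, where 35.3% of all tested genes did, and 25 reached 1 CPM and 2 reached 5 CPM. These 2 were IPCEF1, a regulator of small GTPase exchange factors, which went from 0.205, 0 and 0 CPM to 10.4, 9.81 and 9.29 CPM, and MOXD1, a monooxygenase-like gene, which went from 0.0683, 0 and 0 CPM to 5.43, 7.82 and 5.47 CPM. Granta-519 held on average 48.5 CPM of IPCEF1 and 58.0 CPM of MOXD1 with chidamide. So even the genes that opened most stayed below the other line, and the libraries did not overlap. Of the 565, 334 met the same limits with chidamide and 202 had 0 counts in all 6 libraries labelled JeKo-1. The mirror set was small, with 41 genes silent in Granta-519 vehicle. Of these 11 rose in Granta-519, where 39.6% of all tested genes did, and 3 reached 1 CPM. The highest was GFI1B, a transcription factor of red cell and platelet development, at 3.02 CPM.

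The 5 largest vehicle differences that closed from the Granta-519 side were as follows. MAP2, a microtubule protein of neurons, had 0 counts under the JeKo-1 label and 0.391, 0.316 and 0.400 CPM in Granta-519 vehicle. With chidamide it reached 3.37, 3.13 and 4.07 CPM under the JeKo-1 label and 6.98, 6.07 and 5.08 CPM in Granta-519. Both lines rose, and the difference left was -0.77 ± 0.20 (log2, SE). FLRT3, an adhesion protein, went from -4.87 ± 0.41 to -0.64 ± 0.17, and EPHA4, an ephrin receptor, from -4.36 ± 0.38 to -0.32 ± 0.18. SLC2A3, the glucose transporter GLUT3, had 1.71, 0.674 and 1.41 CPM under the JeKo-1 label and 14.4, 13.0 and 16.1 CPM in Granta-519 vehicle. With chidamide the values were 9.62, 9.53 and 10.8 CPM against 13.1, 12.3 and 15.3 CPM. Here the JeKo-1 label rose 2.96 on the log2 scale and the change in Granta-519 did not pass (-0.09). The uncharacterised LOC100128164 was the last of the 5, at -3.25 ± 0.30 in vehicle and -0.59 ± 0.15 with chidamide.

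From the other side, all 5 leading genes closed with a rise in Granta-519. SYBU, a linker of vesicles to kinesin, stayed at 11.1, 14.9 and 10.8 CPM in vehicle and 12.4, 11.4 and 14.3 CPM with chidamide under the JeKo-1 label. Granta-519 went from 0.586, 0.443 and 0.0666 CPM to 7.33, 6.85 and 6.03 CPM. The difference fell from 5.03 ± 0.26 to 0.92 ± 0.15. OAS1, an interferon-induced sensor of double-stranded RNA, rose in Granta-519 from 1.82, 1.77 and 1.33 CPM to 17.7, 18.5 and 18.8 CPM, against 33.3, 37.8 and 35.0 CPM under the JeKo-1 label. CMTM4, which stabilises the surface protein PD-L1, the neurexin ligand NXPH4 and the glycosyltransferase A4GALT ended at 0.96 ± 0.16, 0.71 ± 0.10 and 0.90 ± 0.08. None of the 5 reached equality: each kept an adjusted p under 0.05 with the JeKo-1 label higher (edgeR).

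Among differences that appeared, several of the leading genes had few counts in vehicle. EPAS1, the hypoxia-inducible factor HIF2A, reached 5.37, 4.98 and 5.22 CPM under the JeKo-1 label and 0.685, 0.635 and 0.474 CPM in Granta-519, from at most 0.260 CPM in any vehicle library. RFPL4A reached 6.44, 6.97 and 4.90 CPM under the JeKo-1 label and at most 0.0685 CPM in Granta-519. The orphan receptor GPR158, the protease CAPN5 and the cilium gene CFAP61 had treated differences of 3.93 ± 0.28, 2.98 ± 0.28 and 2.84 ± 0.30. In Granta-519, GNAO1, the neuronal G protein subunit, reached 9.86, 9.11 and 9.89 CPM against 0 counts under the JeKo-1 label, at least 150-fold. PDZD4 and TMEM121 followed, at -7.87 ± 0.51 and -3.67 ± 0.27, and C10orf10, induced by fasting and progesterone, at -3.43 ± 0.28. NNAT, an imprinted gene of the developing brain, had 3.76, 3.60 and 2.73 CPM under the JeKo-1 label and 5.80, 6.01 and 5.86 CPM in Granta-519 vehicle. Under chidamide it fell to 1.89, 2.20 and 2.35 CPM in the first and rose to 17.9, 21.1 and 17.3 CPM in the second.

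The vehicle counts of these genes are few, and single libraries decide some of the changes. For RFPL4A the adjusted p of the change (edgeR) was 0.0442 with all libraries and 0.0552 to 0.913 when Granta-519 chidamide 2, Granta-519 vehicle 2, JeKo-1-labelled chidamide 1 or 2, or JeKo-1-labelled vehicle 1 or 2 was left out. The change itself dropped from 4.98 to 2.38 without Granta-519 vehicle 2. For GPR158 the adjusted p was 0.228 without Granta-519 vehicle 3, where the change was 2.15 in place of 2.95. For EPAS1 it was 0.0584 and 0.0575 without Granta-519 vehicle 1 or 2. For GNAO1 the change was -5.43 in place of -9.09 without JeKo-1-labelled vehicle 2, and its adjusted p was 1.00. The treated differences of these genes kept an adjusted p under 0.05 in each of those fits.

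ETV7, a transcription factor induced by interferon, was the only reversed gene to reach 5 CPM. It had 0.0683, 0.0749 and 0 CPM under the JeKo-1 label and 0.195, 0.632 and 0.533 CPM in Granta-519 vehicle. With chidamide it had 4.90, 5.62 and 4.58 CPM under the JeKo-1 label and 2.33, 2.19 and 1.96 CPM in Granta-519. The line that was lower became the higher one. The libraries did not overlap in vehicle, where the gene had very few counts under the JeKo-1 label. Separate libraries with chidamide were a condition for naming it.

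**Figure D3:**
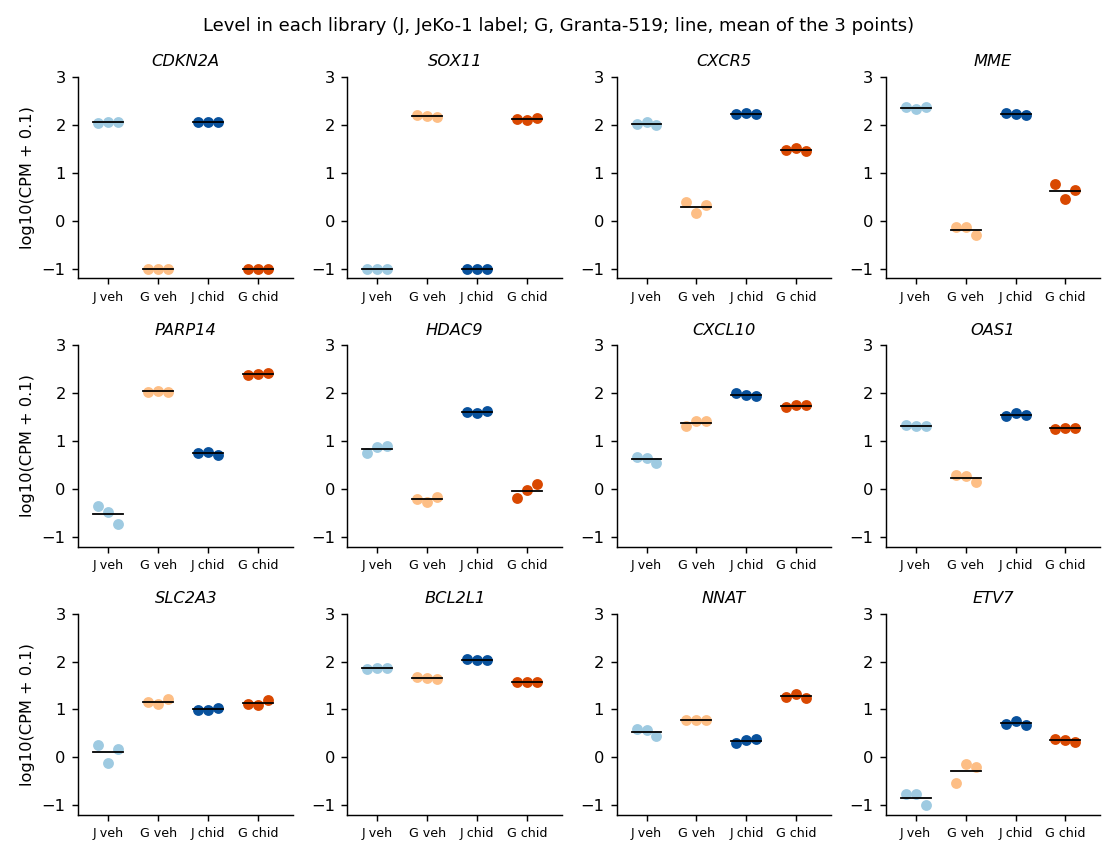
Level of 12 genes in each of the 12 libraries, as log10 of CPM plus 0.1, with J for the JeKo-1 label, G for Granta-519, veh for vehicle and chid for chidamide; the line is the mean of the 3 points. CDKN2A and SOX11 kept their difference, CXCR5, MME and PARP14 narrowed, HDAC9 widened, CXCL10, OAS1 and SLC2A3 closed to under 2-fold, BCL2L1 and NNAT moved apart and ETV7 changed order.

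Interferon-stimulated genes encode the antiviral programme that type I and type II interferons switch on through transcription factors bound to a response element upstream of each gene. The 300 bases around the start of 4 of them are shown (250 before and 50 after, RefSeq, GRCh38.p14, sense strand 5′ to 3′), because the line difference of these genes took different courses. Capitals mark each match to TTTCNNTTTC, the core of that response element, on either strand; matches may overlap. CXCL10 (chr4:76023448-76023747, minus strand) closed, BST2 (chr19:17405581-17405880, minus strand) closed, PARP14 (chr3:122680589-122680888, plus strand) narrowed and MX1 (chr21:41420308-41420607, plus strand) kept 0 counts under the JeKo-1 label.
CXCL10: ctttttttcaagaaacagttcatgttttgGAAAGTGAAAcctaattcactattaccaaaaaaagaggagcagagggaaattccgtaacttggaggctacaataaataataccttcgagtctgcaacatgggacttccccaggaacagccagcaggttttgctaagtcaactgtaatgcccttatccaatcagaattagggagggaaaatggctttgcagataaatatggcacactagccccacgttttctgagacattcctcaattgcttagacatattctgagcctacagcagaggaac
BST2: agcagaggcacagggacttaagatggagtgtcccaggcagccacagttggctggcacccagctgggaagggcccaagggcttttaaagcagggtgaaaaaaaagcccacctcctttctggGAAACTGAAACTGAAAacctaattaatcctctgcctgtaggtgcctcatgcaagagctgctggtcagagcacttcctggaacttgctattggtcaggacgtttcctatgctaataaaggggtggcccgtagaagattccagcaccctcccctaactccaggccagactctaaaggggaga
PARP14: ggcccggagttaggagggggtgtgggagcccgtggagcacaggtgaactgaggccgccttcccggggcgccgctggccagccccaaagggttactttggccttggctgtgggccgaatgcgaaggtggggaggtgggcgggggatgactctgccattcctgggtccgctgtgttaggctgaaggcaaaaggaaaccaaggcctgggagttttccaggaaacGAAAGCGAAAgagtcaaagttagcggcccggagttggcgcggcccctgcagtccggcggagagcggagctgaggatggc
MX1: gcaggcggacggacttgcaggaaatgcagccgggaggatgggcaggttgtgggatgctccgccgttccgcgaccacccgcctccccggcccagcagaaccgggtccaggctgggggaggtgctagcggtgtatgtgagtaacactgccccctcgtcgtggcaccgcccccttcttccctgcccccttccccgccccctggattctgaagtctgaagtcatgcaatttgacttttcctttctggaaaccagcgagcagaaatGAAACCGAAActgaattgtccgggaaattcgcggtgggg
The motif was found in 3.65% of 27305 RefSeq promoters of this length and in 20 of the 30 tested interferon-stimulated genes that had a promoter in the table. Among those 30 it was found in 11 of the 14 whose difference closed or narrowed and in 9 of the other 16. It was thus present in genes of every course, and OAS1, which closed, had no match to these letters in this window.

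In vehicle the interferon-stimulated genes stood higher in Granta-519, and chidamide narrowed that gap. Of 39 tested genes, 26 were at least 2-fold higher in Granta-519 and 4 under the JeKo-1 label in vehicle, and 22 and 2 with chidamide. The change was called narrower in 22 and wider in 4, against 24.5% and 15.0% of all tested genes. The median difference went from -1.74 to -1.11, while that of all tested genes was -0.13 and -0.11. Under the drug 29 genes rose and 1 fell under the JeKo-1 label, and 25 rose and 9 fell in Granta-519, beside 35.3% and 31.1% of all tested genes under the JeKo-1 label and 39.6% and 31.3% in Granta-519. With JeKo-1-labelled vehicle library 2 left out, 41 genes were tested and the medians were -2.58 and -1.15, with 22 narrower and 4 wider. That library stood farthest from its group in the chi-square between replicates.

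CXCL10, a chemokine that draws activated T cells, had 4.65, 4.27 and 3.39 CPM under the JeKo-1 label and 20.8, 26.3 and 26.0 CPM in Granta-519 vehicle. With chidamide it had 101, 91.2 and 87.6 CPM under the JeKo-1 label and 51.9, 56.0 and 56.2 CPM in Granta-519. The order of the lines turned, with a difference of -2.56 ± 0.12 in vehicle and 0.77 ± 0.07 with chidamide. BST2, the tethering factor that holds budding virus on the cell, had 60.5, 74.0 and 72.1 CPM against 160, 154 and 164 CPM in vehicle. With chidamide it had 88.2, 96.1 and 90.4 CPM against 94.1, 88.4 and 87.7 CPM, and the difference was 0.02 ± 0.06. For BST2 the lines met, one rising and the other falling. OASL went from -2.71 ± 0.36 to -0.12 ± 0.21. BST2 and OASL were chosen after their values were seen.

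Other members stayed apart. PARP14, an ADP-ribosyltransferase of macrophage and B-cell activation, rose from 0.342, 0.225 and 0.0828 CPM to 5.49, 5.97 and 5.03 CPM under the JeKo-1 label. Granta-519 rose from 108, 114 and 108 CPM to 246, 254 and 264 CPM, and the difference narrowed from -8.88 ± 0.14 to -5.54 ± 0.07. MX1, a GTPase that blocks influenza virus, had 0 counts in all 6 libraries labelled JeKo-1. It rose in Granta-519 from 2.41, 3.48 and 2.20 CPM to 18.8, 16.2 and 17.1 CPM, so the treated difference was at least 271-fold. IFITM1 and USP18, a membrane restriction factor and a brake on interferon signalling, remained with no called change. In all, 12 members narrowed (7.26% of all tested genes did), 7 closed (5.4%), 1 widened and 10 remained with no called change, and none appeared or reversed.

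The genes of MHC class I presentation, which load peptides for T-cell recognition, also stood higher in Granta-519, and their gap narrowed on a smaller scale. In vehicle 8 of 18 tested genes were at least 2-fold higher in Granta-519, and 5 were with chidamide; none was higher under the JeKo-1 label. The change was narrower in 12 and wider in 1, against 24.5% and 15.0% of all tested genes, and the median went from -0.88 to -0.46. Under the drug 7 rose and 4 fell under the JeKo-1 label (35.3% and 31.1% of all tested genes did). In Granta-519 the counts were 8 and 9 (39.6% and 31.3%). HLA-E and the immunoproteasome subunit PSMB8 were among those that closed. B2M, the invariant light chain, kept its difference, at -1.95 ± 0.04 in both treatments, since it rose by 0.45 on the log2 scale in each line. ERAP2, a peptide-trimming enzyme, and NLRC5, the activator of these genes, also kept theirs. Reads of the near-identical HLA genes may have been split between them. In MHC class II presentation 8 of 17 genes narrowed (24.5% of all tested genes did) and 2 widened (15.0%), and few passed 2-fold in either treatment.

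Germinal-centre genes mark the stage at which B cells diversify their antibody genes. They stood higher under the JeKo-1 label in vehicle (12 of 20 tested at least 2-fold, 1 higher in Granta-519), and with chidamide the counts were 8 and 3. The change was narrower in 14 and wider in 2, against 24.5% and 15.0% of all tested genes, the median going from 1.39 to 0.85. Granta-519 rose in 15 of the 20 (39.6% of all tested genes did) and the JeKo-1 label fell in 11 (31.1%). MME, which encodes the surface antigen CD10, had 234, 212 and 242 CPM in vehicle and 177, 167 and 166 CPM with chidamide under the JeKo-1 label. Granta-519 had 0.651, 0.632 and 0.400 CPM in vehicle and 5.75, 2.75 and 4.40 CPM with chidamide. The difference narrowed from 8.65 ± 0.13 to 5.30 ± 0.09 and the libraries stayed far apart. BCL6, the repressor that maintains the germinal-centre state, rose in Granta-519 from 16.9, 15.7 and 14.9 CPM to 60.3, 62.9 and 62.1 CPM. Under the JeKo-1 label it had 246, 227 and 229 CPM in vehicle and 214, 210 and 214 CPM with chidamide. RGS13, a regulator of chemokine signalling, narrowed from 6.04 to 4.01.

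Of 20 factors of B-cell identity, the change was narrower in 9 (24.5% of all tested genes) and wider in 3 (15.0%). With total-count or upper-quartile scaling it was narrower in 6 and wider in 4, and with total counts the median size of the difference was 0.49 in vehicle and 0.50 with chidamide. FOXO1, which drives early B-cell development, rose in Granta-519 from 3.26, 4.62 and 4.86 CPM to 29.8, 29.3 and 28.3 CPM, against 134, 147 and 138 CPM under the JeKo-1 label. BACH2, a repressor of plasma cell fate chosen after its values were seen, had 13.9, 14.1 and 17.0 CPM against 14.0, 14.3 and 12.1 CPM with chidamide. In vehicle it had 23.4, 22.3 and 26.1 CPM against 7.36, 6.77 and 6.53 CPM, so the libraries separated in vehicle and overlapped with chidamide. POU2AF1, a coactivator of antibody genes, changed order, from 0.65 ± 0.04 to -0.37 ± 0.04. TCF4 and SPI1, 2 further B-cell factors, kept differences of -1.29 ± 0.05 and 1.08 ± 0.08.

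Genes of the surface antigens used in therapy narrowed in 14 of 23 (24.5% of all tested genes did) and widened in 2 (15.0%). CXCR5, the receptor that guides B cells into follicles, rose in Granta-519 from 2.34, 1.33 and 2.06 CPM to 29.4, 33.6 and 28.7 CPM and under the JeKo-1 label from 103, 113 and 101 CPM to 174, 175 and 171 CPM. Its difference went from 5.79 ± 0.10 to 2.51 ± 0.06. CD274, which encodes the checkpoint ligand PD-L1, rose in both lines and narrowed from -4.54 ± 0.18 to -2.76 ± 0.11. MS4A1, which encodes CD20 and was chosen after its values were seen, stayed at -1.53 in both treatments.

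Of the 20 mantle cell lymphoma markers, 18 remained (31.3% of all tested genes did). Of these, 5 narrowed (7.26% of all tested genes) and 2 widened (1.88%). None closed or appeared, and among all tested genes only 5.4% and 3.22% did. The treated counts equalled those in vehicle, with 4 higher under the JeKo-1 label and 14 in Granta-519. With chidamide 12.7% and 25.3% of all tested genes were. CCND1 had 1.06, 0.782 and 0.954 CPM under the JeKo-1 label and 1799, 1818 and 1621 CPM in Granta-519 with chidamide. In vehicle it had 0.137, 0.150 and 0.0828 CPM against 2152, 2121 and 2067 CPM. The difference narrowed by 3.11 ± 0.46 and remained at -10.84 ± 0.08. CD24, a surface glycoprotein of B cells, and PDGFA, a growth factor, remained at or near 0 under the JeKo-1 label. CCND2, another D cyclin, remained as well, at -6.79 ± 0.26.

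MYC, the growth-promoting transcription factor named in the title of the series, had 325, 339 and 323 CPM under the JeKo-1 label and 83.9, 85.1 and 86.0 CPM in Granta-519 vehicle. With chidamide it fell to 196, 206 and 206 CPM in the first and rose to 122, 128 and 121 CPM in the second. The libraries did not overlap in either treatment, and the difference closed from 1.95 ± 0.05 to 0.71 ± 0.04, under 2-fold. Of 50 MYC target genes, 48 fell under the JeKo-1 label, and 40 fell and 7 rose in Granta-519. Of all tested genes 31.1% fell under the JeKo-1 label, and 31.3% fell and 39.6% rose in Granta-519. The line difference narrowed in 32 and widened in 11, against 24.5% and 15.0% of all tested genes, the median going from 0.59 to 0.18. In vehicle 10 were at least 2-fold higher under the JeKo-1 label and 3 in Granta-519, and 6 and 3 with chidamide. The nucleoside transporter SLC29A2 narrowed from 3.65 ± 0.12 to 2.24 ± 0.12 and the RNA-modifying enzyme PUS7 from 2.38 ± 0.06 to 1.35 ± 0.06. The helicase DDX18 and the RNA polymerase I subunit POLR1B were higher in Granta-519 and widened, to -1.69 ± 0.05 and -1.45 ± 0.05.

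Scaling bears on such shifts. Dividing by total counts alone in place of TMM moved the median vehicle difference of all genes from -0.13 to -0.27 and left the treated one at -0.11. The changes of MYC target genes then numbered 21 narrower and 9 wider, and those of interferon-stimulated genes 24 and 3. For genes of DNA replication the direction was not stable: with TMM 18 changes were towards Granta-519 and 5 towards the JeKo-1 label, and with total counts 4 and 10. PCNA, the clamp of the replication fork, had the largest difference of these 44 genes, at 1.94 ± 0.05 in vehicle and 1.65 ± 0.05 with chidamide.

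Oxidative phosphorylation genes moved apart more often than together. Genes of the respiratory chain and ATP synthase were higher under the JeKo-1 label, 9 of 42 at least 2-fold in vehicle and 13 with chidamide, and none was 2-fold higher in Granta-519. The change was wider in 19 and narrower in 3, against 15.0% and 24.5% of all tested genes. Among the line differences 6 appeared (3.22% of all tested genes did) and 3 remained and widened (1.88%). The median went from 0.45 to 0.62. Both lines lowered these genes, with 27 falling under the JeKo-1 label (31.1% of all tested genes did) and 35 in Granta-519 (31.3%). CYC1, the cytochrome c1 subunit, fell from 449, 496 and 446 CPM to 242, 258 and 249 CPM under the JeKo-1 label and from 240, 241 and 229 CPM to 93.4, 92.2 and 84.3 CPM in Granta-519. ATP5G1 and COX7A2 kept differences of 2.00 ± 0.06 and 1.83 ± 0.05. With total counts alone 27 of the 42 were wider and 8 narrower.

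Among the 5 tested antiapoptotic genes of the BCL2 family the change was wider in 3 and narrower in 2. Among 13 proapoptotic ones it was wider in 1 and narrower in 2, and among all tested genes wider in 15.0% and narrower in 24.5%. BCL2, the target of venetoclax, was lower under the JeKo-1 label, with 42.8, 40.5 and 42.8 CPM against 699, 714 and 774 CPM with chidamide. Its difference narrowed from -4.66 ± 0.05 to -4.11 ± 0.05. BCL2L1, which encodes BCL-XL, rose under the JeKo-1 label from 70.1, 74.6 and 72.9 CPM to 111, 106 and 105 CPM and fell in Granta-519 from 46.5, 44.9 and 42.1 CPM to 38.1, 37.3 and 37.1 CPM. A 2-fold difference thereby appeared, at 1.52 ± 0.06. BCL2L2, which encodes BCL-W, fell in Granta-519 alone and reached 1.36 ± 0.13. All 5 antiapoptotic members changed towards the JeKo-1 label, and 4 did when any Granta-519 chidamide library, Granta-519 vehicle 2 or 3, JeKo-1-labelled chidamide 1 or 2, or JeKo-1-labelled vehicle 2 was left out. Among proapoptotic members HRK narrowed from 4.87 ± 0.36 to 1.96 ± 0.24 and PMAIP1, which encodes NOXA, kept -2.31 ± 0.05.

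HDAC1, a class I enzyme, kept its difference, at 1.72 ± 0.04 in vehicle and 1.74 ± 0.04 with chidamide. HDAC9, a class II enzyme, rose under the JeKo-1 label from 5.67, 7.34 and 7.70 CPM to 41.0, 37.8 and 42.0 CPM and stayed at 0.548, 0.847 and 1.15 CPM in Granta-519, so that it widened to 5.55 ± 0.16. HDAC7 narrowed from 3.06 ± 0.05 to 1.79 ± 0.05. Over 16 deacetylase genes 4 changes were narrower and 4 wider, beside 24.5% and 15.0% of all tested genes. CDKN1B, which encodes the kinase inhibitor p27, narrowed from -2.41 ± 0.08 to -1.48 ± 0.07. Of the NF-kB genes 13 of 26 were narrower and 8 wider, beside the same shares of all tested genes. CD83, an activation marker, rose from 162, 162 and 157 CPM to 753, 750 and 699 CPM under the JeKo-1 label and from 54.6, 58.4 and 58.7 CPM to 132, 127 and 125 CPM in Granta-519, and so widened to 2.52 ± 0.04. IER3, an early response gene, changed order from -1.37 ± 0.19 to 0.58 ± 0.10.

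**Figure D4:**
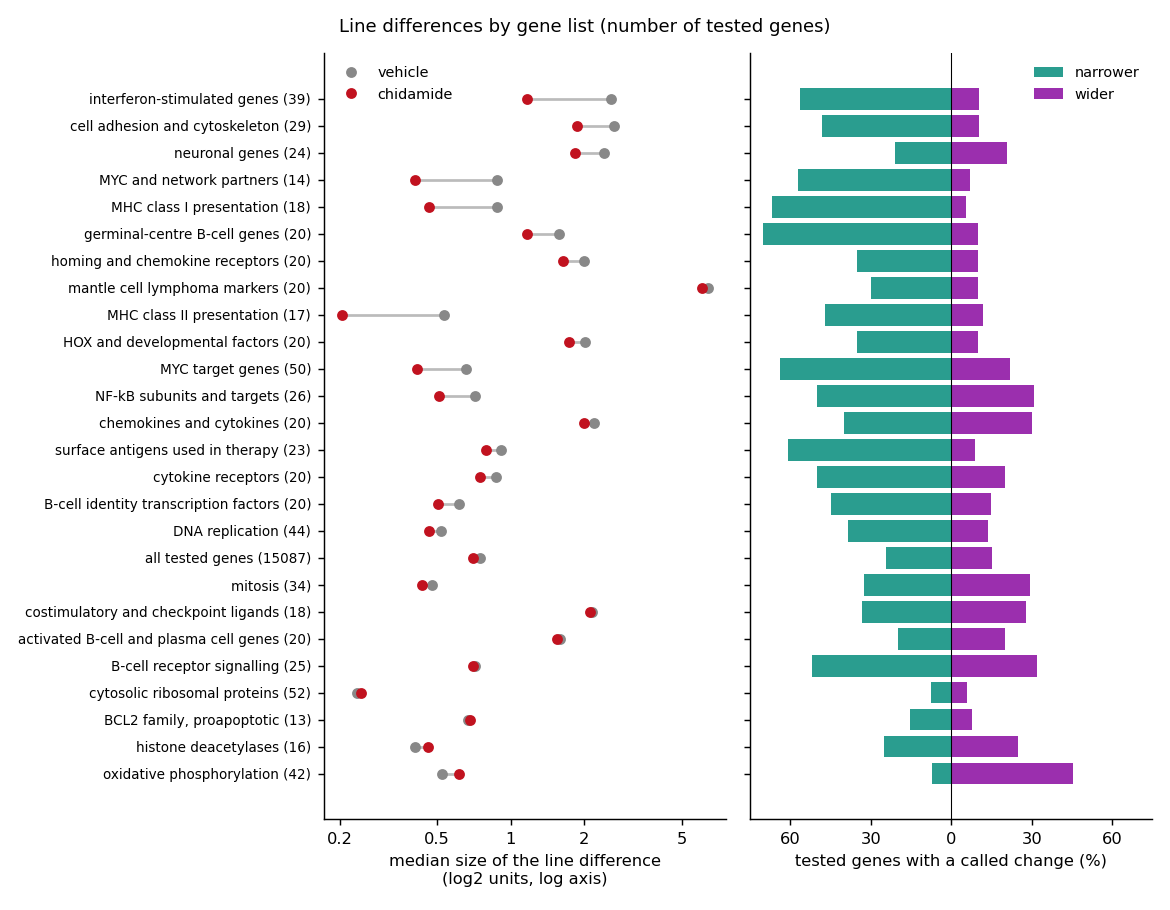
Left, median size of the line difference in vehicle and with chidamide for each gene list with at least 10 tested genes, in log2 units on a log axis. Right, percentage of tested genes whose difference was called narrower or wider; most lists lie to the narrower side, whereas oxidative phosphorylation has 19 wider and 3 narrower genes.

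Part of the line difference ran along stretches of neighbouring genes. The tested genes with at least 1 CPM in all groups were put in RefSeq order along the chromosomes and divided into 525 runs of 20; 14988 of the 15087 gene names were matched. The run medians in vehicle and with chidamide had a Pearson r of 0.91 across runs, a description over runs that share libraries. In 24 runs the median was at least 1 log2 unit in size in vehicle, in 21 with chidamide and in 16 in both. The run from VPS16 to PCNA had a median of 1.74 in vehicle and 1.63 with chidamide, with 20 and 19 of its 20 genes higher under the JeKo-1 label. The run from FECH to TMX3 had -1.36 and -1.67, with 19 of 20 genes higher in Granta-519 under the drug; BCL2, PMAIP1 and MALT1 lie in it. With chidamide 38 runs had at least 18 of 20 genes higher under the JeKo-1 label and 15 had as many higher in Granta-519, and 26 and 9 of these also did in vehicle. The median run already had 11 of its 20 genes higher under the JeKo-1 label, since genes low in a group were left out. The number of gene copies was not measured.

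**Figure D5:**
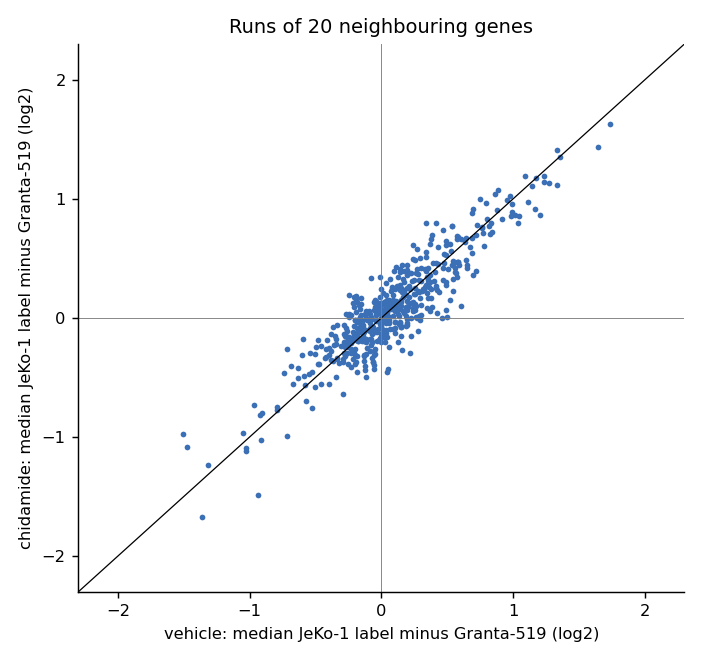
Median line difference of each of 525 runs of 20 neighbouring genes in vehicle (horizontal axis) and with chidamide (vertical axis), as log2 of the JeKo-1 label over Granta-519. The points follow the diagonal, from the run FECH to TMX3 at -1.67 with chidamide to the run VPS16 to PCNA at 1.63.

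The classes also differed in their promoters. A promoter of 300 bases was called rich in CpG where GC content was at least 50% and the observed over expected CpG ratio at least 0.6; this held for 75.9% of 11719 tested genes with a promoter in the RefSeq table. It held for 63.0% of genes that remained higher in Granta-519 with no called change, for 60.6% of those that narrowed on that side and for 67.1% of those that closed. On the side of the JeKo-1 label the shares were 72.5%, 75.6% and 82.6%. Among differences that appeared it was 80.4% of the Granta-519 side and 73.2% of the other. These shares are descriptions with no test, since the classes also differ in expression level.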

How the data were processed

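Polyadenylated RNA of 12 libraries in 4 groups of 3 was analysed. The authors deposited raw counts for gene symbols. STAR and hg19 are named as aligner and build, per the submitters' processing notes; for the counting tool, annotation and strand setting, the sources used here give nothing. Another deposited table, called TPM by its name, does not have the fixed column sum of TPM and was treated as a length-scaled score; it served as an alternative with limma on log2(score + 0.05). Of 26364 genes, 4719 had no count. The 28 date-like names, 0.260% of counts, were left out of the named genes.

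edgeR 4.0.16 in R 4.3.3 (filterByExpr, TMM, robust quasi-likelihood fit with 4 group means and 8 residual degrees of freedom) gave the line difference in each treatment, its change, standard errors and adjusted p-values (Benjamini-Hochberg over 15087 genes). Line differences needed an adjusted p under 0.05 and at least 2-fold; the change needed the adjusted p alone. The common biological coefficient of variation was 4.22%. CPM values were computed here from the counts and are not per length. Replicate libraries differed by more than counting error, with a chi-square of 1.62 to 5.39 per gene. The fit was tested on simulated data. Alternatives were limma 3.58.1, DESeq2 1.42.0, other scalings, filters, boundaries, pseudocounts and each library left out.

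Named genes, with at least 5 CPM in a group and no overlap between lines, were the 5 largest differences per direction that remained, appeared or closed, up to 3 reversed ones per direction, and per list up to 3 members with the largest treated difference and 2 with the largest change. The 32 lists and this rule were chosen with earlier results of these data known. Promoters and gene order came from RefSeq GRCh38.p14 by gene name; no coordinate was carried over to hg19. Some named genes are not reported here.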

Additional observations from a re-analysis of the deposited data

Results flagged for a closer look

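The 2 lines responded differently to chidamide in 5956 of 15087 genes, by the test of the change of the line difference (edgeR, adjusted p under 0.05). The genes named for leading differences that appeared or closed passed this test by definition, since those classes require a called change. Their passing is therefore no separate result. ETV7 reversed, and its class needs a 2-fold call in each treatment, in opposite directions. A large change follows from that class, so its passing is no separate result either. The values are log2 changes of the JeKo-1 label over Granta-519, chidamide minus vehicle.

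Changes towards the JeKo-1 label were 4.98 for RFPL4A, 3.30 for EPAS1, 2.95 for GPR158, 2.24 for CAPN5 and 2.02 for CFAP61, whose differences appeared. They were 4.69 for MAP2, 4.23 for FLRT3, 4.04 for EPHA4, 3.05 for SLC2A3 and 2.66 for LOC100128164, whose differences closed, and 4.20 for ETV7, which reversed.

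Changes towards Granta-519 were -9.09 for GNAO1, -7.54 for PDZD4, -3.12 for TMEM121, -2.89 for C10orf10 and -2.33 for NNAT, whose differences appeared. They were -4.11 for SYBU, -2.84 for CMTM4, -2.73 for OAS1, -2.69 for NXPH4 and -2.42 for A4GALT, whose differences closed. GNAO1 and MAP2 had 0 counts in a group, so the sizes of their fitted changes depend on the fit's prior count. PDZD4 had 1 to 3 counts in 3 of the 4 groups.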

How the results depend on the processing

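The counts of genes moved most with what was tested and with the fold boundary. With at least 5 CPM in every group, 1501 genes differed between the treated lines (799 higher under the JeKo-1 label, 702 in Granta-519) and 1709 in vehicle; 1111 differences remained, 390 narrowed, 163 widened, 502 closed, 311 appeared and 0 reversed. With no fold boundary 12330 differed (5491 and 6839) and 12038 in vehicle; 10064 remained, 2483 narrowed, 1196 widened, 856 appeared and 509 reversed. At 4-fold 3205 differed (585 under the JeKo-1 label) and 3523 in vehicle; 2785 remained, 532 narrowed, 84 widened, 505 closed, 145 appeared and 2 reversed. The ratio of the treated to the vehicle distance was 1.01 as reported, 1.01 with library-size scaling, 1.02 with upper-quartile scaling, 1.01 with no filter, 0.895 at 5 CPM in every group, 0.970 with a pseudocount of 0.5 and 1.03 with 8. It ran from 1.01 to 1.02 with each library left out.

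With each library left out, 5859 to 6031 genes differed between the treated lines, 4730 to 4836 differences remained, 759 to 814 closed and 451 to 490 appeared; fewer libraries in a group also let more genes pass the count filter. Same-numbered libraries correlated at -0.112 to 0.212 in their deviations from group means, with 5 of 18 pairs over 0.1. Differently numbered ones ran from -0.312 to 0.180, with 6 of 36 over 0.1. The ranges overlap, so they cannot decide whether same-numbered libraries share more than a number. With a replicate block 5741 genes differed between the treated lines, 4707 remained, 810 closed and 494 appeared. Of 3223 values of 149 named genes over the alternatives, 3199 kept direction and side of the threshold, 22 lost the call, 2 gained it and 0 reversed. Genes under 1 CPM in a line, 2466 of the 4726 differences that remained, have differences limited by depth.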

Other observations

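Gene groups away from the main comparisons were mixed. Of all tested genes the change was narrower in 24.5% and wider in 15.0%. Of 29 tested adhesion and cytoskeleton genes, 18 were at least 2-fold higher in Granta-519 in vehicle and 16 with chidamide, and the change was narrower in 14 and wider in 3. Neuronal genes, of which 24 of 40 could be tested, were at least 2-fold higher in Granta-519 in 13 in vehicle and in 13 with chidamide, with 5 narrower and 5 wider. KIF5C, a kinesin of neurons, widened from 1.82, 1.90 and 1.40 CPM in Granta-519 vehicle to 27.0, 25.2 and 24.3 CPM, against at most 0.763 CPM in any library labelled JeKo-1. Of 20 chemokine and cytokine genes 8 were narrower and 6 wider, and 4 differences appeared, among them LTA, which encodes lymphotoxin, at 1.65 ± 0.07 (log2, SE). Of 20 cytokine receptor genes 10 were narrower and 4 wider, and of 20 homing receptor genes 7 and 2. IL7R, the interleukin-7 receptor, narrowed from 8.25 to 3.86.

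The counts of the remaining lists stand beside 24.5% narrower and 15.0% wider among all tested genes. For narrower and wider genes they were 13 and 8 of 25 for B-cell receptor signalling and 4 and 4 of 20 for activated B-cell and plasma cell genes. The counts were 6 and 5 of 18 for costimulatory and checkpoint ligands and 2 and 1 of 13 for proapoptotic genes. They were 3 and 1 of 8 for CDK inhibitors, 8 and 1 of 14 for MYC and its partners, 11 and 10 of 34 for mitosis and 4 and 3 of 52 for cytosolic ribosomal proteins. They were 7 and 2 of 20 for HOX and developmental factors, 0 and 1 of 4 for cancer-testis antigens, 1 and 0 of 9 for T-cell and natural killer markers, 2 and 0 of 8 for myeloid markers, 1 and 1 of 2 for erythroid markers and 2 and 0 of 9 for epithelial and stromal markers. With total-count scaling the called changes of ribosomal protein genes turned from 0 towards the JeKo-1 label and 7 towards Granta-519 to 16 and 2.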
